A study of Rattus norvegicus with 8 samples.

Results

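The genes described here are 10 liver genes of the urea cycle and of ammonia handling, out of 14218 genes with a probe set of their own on the array: Cps1, Otc, Ass1, Asl, Arg1, Nags, Slc25a15, Slc25a13, Gls2 and Glul. They were chosen by name. All probe sets with 1 of these symbols alone in the array's annotation, after symbols were updated from RefSeq, were taken. This gave 20 of the 31042 probe sets. A probe set was counted as measured where its values spanned at least 0.05 (log2) over the 8 arrays, as 18 of the 20 did, so that each of the 10 genes had at least 1 measured probe set.

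Liver RNA came from male Wistar rats, which were 4 weeks old at the start, were kept for 7 days of acclimatization and then received for 24 days either the control diet, an AIN-93G based diet with 0.3% phosphorus, or the HP diet, the same kind of diet with 1.2% phosphorus. Both groups were 8 weeks old when the livers were taken, and no transgene or drug is named for either. Of 5 rats fed each diet, 4 per diet were put on Affymetrix arrays, with 1 array per rat. The comparison asks how the liver transcripts of rats differ when dietary phosphorus is raised 4-fold in otherwise similar diets.

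The urea cycle removes the ammonia that is set free when amino acids are broken down. Carbamoyl phosphate synthetase 1 (Cps1) and ornithine transcarbamylase (Otc) act in the mitochondria of hepatocytes, argininosuccinate synthetase (Ass1), argininosuccinate lyase (Asl) and arginase 1 (Arg1) act in the cytosol, and the carriers Slc25a15 and Slc25a13 join both compartments. In the liver lobule the cycle and the glutaminase Gls2, which frees ammonia from glutamine, are most abundant in periportal hepatocytes. Glutamine synthetase (Glul) is confined to a thin perivenous layer, where it binds the ammonia that has passed the periportal cells.

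The deposited values of the 31042 probe sets ran, with those of 57 control probe sets, from 5.35 to 14.53 (log2), and every array had a median of 6.65. Precision is limited by the number of arrays, and in a whole liver fewer cells of a type and less RNA per cell cannot be told apart. Of 8 hepatocyte markers 7 had a probe set, and the control means of their brightest probe sets were 13.1 or more. Only Apoa1 and Fgb among them were measured, with differences between diets of 0.02 and 0.00 (log2).

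At the measured probe set with the highest mean, all 10 genes had a lower mean in the HP diet-fed rats. Their log2 differences ran from -0.31 for Gls2 to -0.02 for Otc, with a median of -0.14. Over all 2808 measured genes the median was -0.01, and 54.7% had a lower mean. With the arrays centred on the median of measured probe sets, that share was 48.0%, and Otc and Slc25a13 differed by -0.0023 and -0.0095. By rank products, the test of the study's methods, 4 of the 10 were lower at an FDR under 0.05, namely Cps1, Ass1, Slc25a15 and Gls2, and none was higher. Rank products called 1.62% of all probe sets ranked lower, but 9.94% of the measured genes, and called 8.48% of the measured genes higher. In the same 4 genes every HP diet-fed rat lay below every control rat, which held for 3.53% of the measured genes. They were also the members with an unadjusted p under 0.05 in limma and a lower mean, as 6.30% of the measured genes were. With Benjamini-Hochberg adjustment, limma called 0 of 4155 probe sets in either direction (0%), and the smallest adjusted p of a member was 0.156. The 10 genes had been listed with earlier results of these data known, and these shares were not compared by a test. The study's own rank products on these arrays had already called Cps1, Ass1 and Gls2 lower at the same probe sets. Their calls here are therefore no independent support.

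**Figure D1:**
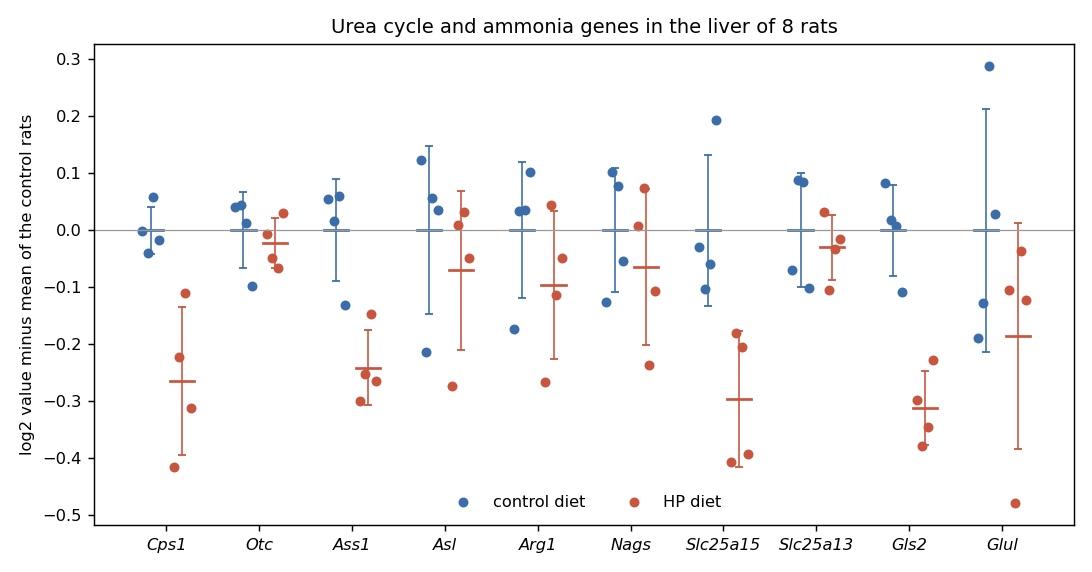
Log2 value of each gene in each rat minus the mean of its 4 control rats, at the measured probe set with the highest mean. Points are rats (1 to 4 from left to right within a diet), horizontal bars are diet means and vertical bars are SDs. The diets do not overlap in Cps1, Ass1, Slc25a15 and Gls2, and overlap in the other 6 genes.

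The rank product calls depended on what was ranked and on single control rats. When only measured probe sets were ranked, 17 probe sets were called lower and none of the 10 genes was among the calls. Without control rat 1 the calls were Slc25a15 and Gls2, without control rat 4 Gls2 alone, and without control rat 2 or control rat 3 there was none, whereas the same 4 genes were called without any 1 of the HP diet-fed rats. The lowest value of a gene was found in an HP diet-fed rat in 9 of the 10 genes, and in HP rat 1 in 5 of them. The highest value was found in a control rat in all 10. How often this occurs over all measured genes was not counted, and the 10 genes were read on the same arrays.

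Cps1, the mitochondrial enzyme that commits ammonia to the cycle, read 12.37, 12.33, 12.42 and 12.35 (log2) in control rats 1 to 4 and 11.95, 12.14, 12.26 and 12.05 in HP rats 1 to 4 at probe set 1370151_at. All HP diet-fed rats were below the lowest control rat, and the control rats lay within 0.10 of each other. The mean on the HP diet was 83.2% of that on the control diet (95% interval 75.4 to 91.8), a log2 difference of -0.27 with an SE of 0.06 (rank products FDR 0.0173, limma adjusted p 0.217). The second probe set of Cps1, 1384334_at, was brighter but read 13.05 in every rat and held no measured difference. RefSeq gives 1 promoter for Cps1, and the 250 bases before its start (GRCr8, chr9:76063613-76063862, plus strand) are shown because they hold, in capitals, a GGACTTTG that begins 70 bases before the start. It is the reverse complement of CAAAGTCC, the core of sites for the hepatocyte factor HNF4, and the windows of 1.14% of 33469 RefSeq promoters held it on either strand.
Cps1: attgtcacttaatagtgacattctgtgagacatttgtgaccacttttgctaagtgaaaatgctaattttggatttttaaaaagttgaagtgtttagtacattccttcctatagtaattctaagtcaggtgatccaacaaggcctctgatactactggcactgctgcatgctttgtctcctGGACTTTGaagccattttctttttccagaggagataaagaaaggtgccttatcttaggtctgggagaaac

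Nags and Otc, which also act in the mitochondria, had smaller differences than Cps1, a contrast that was not tested. Nags, which makes the N-acetylglutamate that Cps1 needs, read 9.85, 10.08, 10.05 and 9.92 in control rats and 9.98, 10.05, 9.74 and 9.87 in HP diet-fed rats. The diets overlapped, with a log2 difference of -0.07 and a 95% interval from -0.25 to 0.12 (limma adjusted p 0.745). Otc, which joins carbamoyl phosphate to ornithine, read 12.17, 12.17, 12.14 and 12.03 against 12.12, 12.08, 12.06 and 12.16. The lowest reading of Otc belonged to a control rat, and the interval of its difference, -0.12 to 0.08, was the narrowest of the 10 genes.

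Ass1, which condenses citrulline with aspartate in the cytosol, read 12.63, 12.59, 12.63 and 12.44 in control rats and 12.27, 12.32, 12.42 and 12.31 in HP diet-fed rats. The diets were separated by 0.02 between control rat 4 and HP rat 3, the members of each diet nearest to the other. The mean on the HP diet was 84.6% of the control mean (95% interval 77.9 to 91.9), a log2 difference of -0.24 with an SE of 0.05 (rank products FDR 0.0201, limma adjusted p 0.217).

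The enzymes after Ass1 overlapped between the diets. Asl, which splits argininosuccinate into arginine and fumarate, read 10.49, 10.15, 10.42 and 10.40 against 10.09, 10.37, 10.40 and 10.32 at 1367754_s_at. Its second probe set, 1368916_at, followed the first with r = 0.98 over the 8 rats. Their log2 differences, -0.07 and -0.05, were within the rat-to-rat spread and changed sign when the arrays were weighted. Arg1, which releases urea from arginine, read 13.03, 13.24, 13.24 and 13.31 against 12.94, 13.25, 13.09 and 13.16. HP rat 1 was the lowest rat for both Asl and Arg1, and the log2 difference of Arg1, -0.10, had a 95% interval from -0.27 to 0.08 (limma adjusted p 0.578).

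Slc25a15, the carrier that brings ornithine into the mitochondrion and takes citrulline out, had 6 probe sets, of which 5 were measured. At the brightest, 1381124_at, the control rats read 11.73, 11.65, 11.70 and 11.95 and the HP diet-fed rats 11.35, 11.58, 11.55 and 11.36. The lowest control rat was 0.08 above the highest HP diet-fed rat. At 1393947_at, the probe set with the largest difference of any member, the control rats read 11.20, 11.15, 11.19 and 11.44 and the HP diet-fed rats 10.56, 10.80, 10.85 and 10.64. The gap between the diets was wider there, and the HP mean was 69.2% of the control mean (95% interval 60.5 to 79.2) against 81.4% (71.8 to 92.3) at the brightest.

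All 5 measured probe sets of Slc25a15 separated the diets, with log2 differences of -0.30, -0.30, -0.39, -0.53 and -0.52, rank products FDRs from 0.000941 to 0.0124 and limma adjusted p-values from 0.156 to 0.262. Control rat 4 was the highest rat and HP rat 1 the lowest at each of them, and over the 8 rats their pairwise r ran from 0.95 to 1.00. These probe sets report on 1 gene and are not independent of each other. The remaining probe set, 1381440_at, read 6.01 in every rat. With them, 8 of the 18 measured member probe sets were called lower by rank products, beside 12.1% of all measured probe sets.

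**Figure D2:**
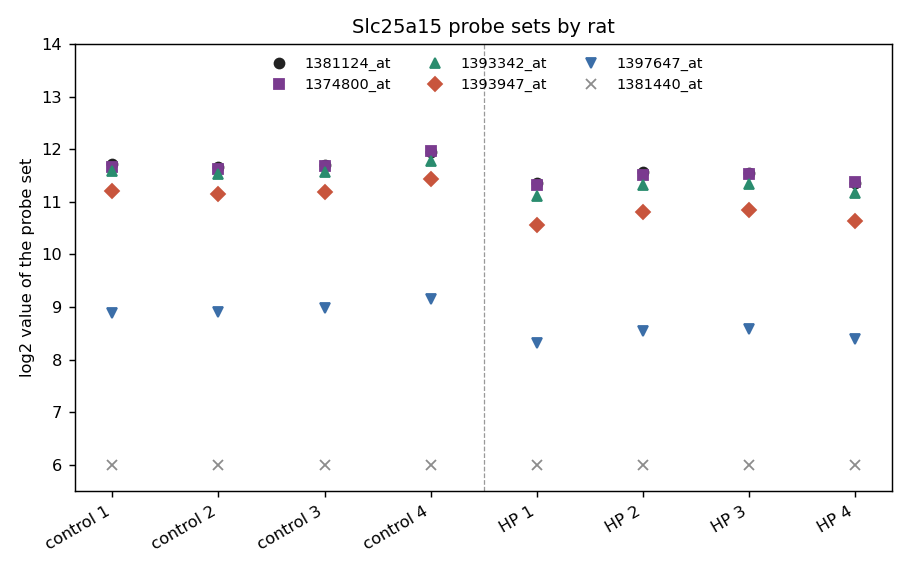
Log2 value of the 6 Slc25a15 probe sets in each of the 4 control and 4 HP diet-fed rats. The 5 measured probe sets are lower in every HP diet-fed rat than in any control rat, while 1381440_at stays at 6.01.

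Slc25a13, the mitochondrial carrier that exports the aspartate used by Ass1, gave no such separation. Its brighter probe set, 1389622_at, read 11.61, 11.77, 11.76 and 11.58 in control rats and 11.71, 11.57, 11.65 and 11.66 in HP diet-fed rats. The log2 differences at its probe sets were -0.03 (95% interval -0.16 to 0.10) and -0.09 (95% interval -0.28 to 0.09). At their brightest measured probe sets, the differences of the 2 mitochondrial carriers were -0.30 and -0.03, a contrast that was not tested.

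Gls2, the liver glutaminase that supplies ammonia to Cps1 from glutamine, had the largest difference of the 10 genes at the probe sets with the highest mean. It read 11.27, 11.21, 11.19 and 11.08 in control rats and 10.89, 10.81, 10.84 and 10.96 in HP diet-fed rats. The lowest control rat exceeded the highest HP diet-fed rat by 0.12, the widest gap among these 10 probe sets. The HP mean was 80.5% of the control mean (95% interval 73.9 to 87.7), a log2 difference of -0.31 with an SE of 0.05 (rank products FDR 0.00957, limma adjusted p 0.167). RefSeq gives 2 starts for Gls2, both on the plus strand of GRCr8. The window of the first (chr7:1201629-1201878) held TGACG, the core of the cAMP response element, 2 times, as 18.2% of windows held it at least once on either strand. The window of the second (chr7:1206874-1207123) held TGTTTNC, the letters of a FOXA site, 3 times, and 18.3% of windows held it at least once. They are shown, with these letters in capitals, because Gls2 had that widest gap.
Gls2, first start: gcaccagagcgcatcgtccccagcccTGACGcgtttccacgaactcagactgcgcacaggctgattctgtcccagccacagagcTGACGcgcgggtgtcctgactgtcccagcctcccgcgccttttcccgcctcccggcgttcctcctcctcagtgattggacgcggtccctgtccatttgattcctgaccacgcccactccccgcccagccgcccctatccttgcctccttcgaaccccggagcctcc
Gls2, second start: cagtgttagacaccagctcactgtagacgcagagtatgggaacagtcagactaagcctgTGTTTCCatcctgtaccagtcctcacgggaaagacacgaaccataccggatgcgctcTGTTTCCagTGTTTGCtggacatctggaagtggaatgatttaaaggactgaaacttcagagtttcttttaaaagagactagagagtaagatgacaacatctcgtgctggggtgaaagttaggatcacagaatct

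Glul, the perivenous enzyme that binds ammonia to glutamate, had the largest SD within each diet among the 10 genes at their probe sets with the highest mean. At its brightest probe set, 1367632_at, it read 10.66, 10.72, 11.14 and 10.88 in control rats and 10.74, 10.37, 10.81 and 10.72 in HP diet-fed rats. Control rat 3 was the highest and HP rat 2 the lowest, and the other 6 rats were mixed between the diets. The HP mean was 87.9% of the control mean with a 95% interval from 72.3 to 107, a log2 difference of -0.19 with an SE of 0.12 (rank products FDR 0.162, limma adjusted p 0.527). The other probe sets, 1386870_at and 1367633_at, had log2 differences of -0.13 and -0.09, both of which turned slightly positive, to 0.0019 and 0.0010, without control rat 3. The window of the first of 2 RefSeq starts of Glul (GRCr8, chr13:68519250-68519499, plus strand) held ATCAAAG, the letters bound by TCF/LEF factors of the Wnt pathway, which is known to drive perivenous genes. It is shown for comparison with the periportal Cps1, with the letters in capitals, and 3.15% of windows held them on either strand.
Glul, first start: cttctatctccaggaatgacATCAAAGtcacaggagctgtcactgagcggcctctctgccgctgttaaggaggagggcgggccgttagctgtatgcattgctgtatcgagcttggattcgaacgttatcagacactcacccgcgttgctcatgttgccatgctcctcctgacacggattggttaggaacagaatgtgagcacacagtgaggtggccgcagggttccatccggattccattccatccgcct

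The windows of the 250 bases before 11 RefSeq starts of 9 of the genes were searched on both strands for 6 sets of letters. These were TTGCNNAA for C/EBP factors, TGTTCT for the half-site of glucocorticoid response elements, and the 4 sets named above with Cps1, Gls2 and Glul. None of the 6 was in the windows of Ass1, Nags, Asl, Slc25a15 or the second start of Glul, while Slc25a13 held 1 TGACG and Otc 1 ATCAAAG. The letters for C/EBP, which 9.22% of all windows held, and those for the glucocorticoid half-site, which 17.5% held, were in none of the 11. These matches describe letters in a short window and no binding. RefSeq's table had no entry for Arg1.

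**Figure D3:**
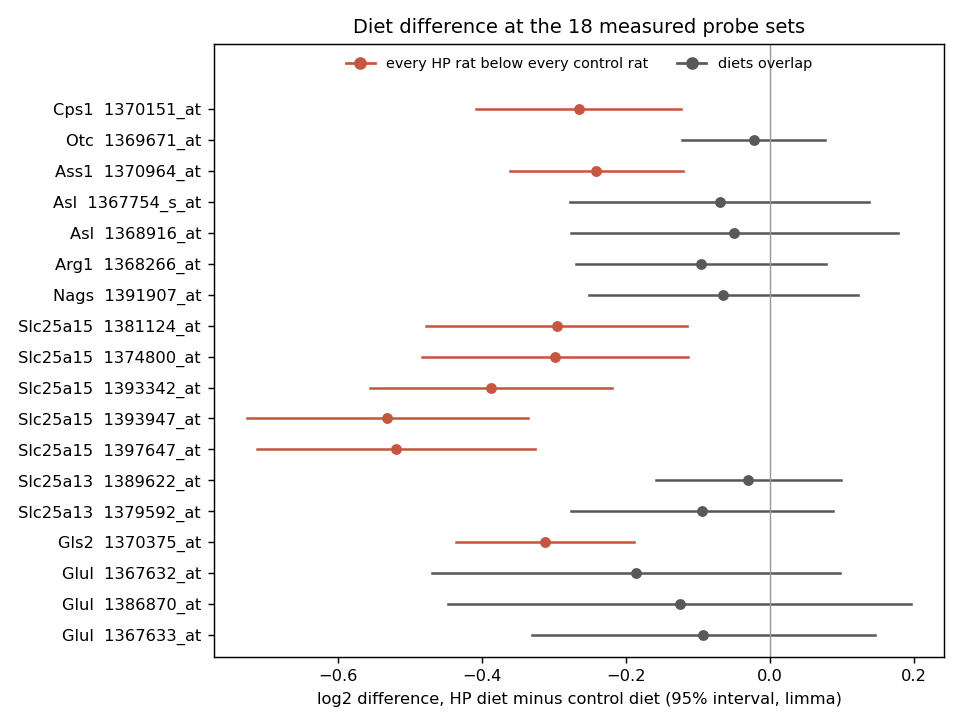
Log2 difference, HP diet minus control diet, at each of the 18 measured probe sets, with the 95% interval from limma. In the 8 probe sets drawn in red every HP diet-fed rat is below every control rat. They belong to Cps1, Ass1, Slc25a15 and Gls2, and include the 5 measured probe sets of Slc25a15, which are not independent. Such a separation held for 3.53% of the measured genes, and its share over probe sets was not counted. The other 10 intervals include 0.

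Periportal and perivenous genes were compared within each rat, since the levels of different probe sets cannot be set against each other but their difference can be followed from rat to rat. Log2 Cps1 minus log2 Glul was 1.71, 1.61, 1.29 and 1.48 in control rats and 1.21, 1.78, 1.45 and 1.33 in HP diet-fed rats. The diets overlapped over nearly their whole ranges, with the highest value in HP rat 2, where Glul was lowest. The means were 1.52 ± 0.18 (SD, n = 4) and 1.44 ± 0.24 (SD, n = 4), and the difference of -0.08 gave p = 0.629 in a two-sided exact permutation test, whose smallest possible p is 0.0286. The test does not show that both genes responded alike, since the difference was -0.19 when HP rat 2 was left out and -0.0026 when HP rat 1 was.

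The mean deviation of the 9 genes other than Glul, each taken from its own mean over the 8 rats, was 0.07, 0.07, 0.11 and 0.06 in control rats and -0.14, -0.04, -0.06 and -0.08 in HP diet-fed rats. That of Glul was -0.10, -0.03, 0.38 and 0.12 in control rats and -0.01, -0.39, 0.06 and -0.03 in HP diet-fed rats. The mean of the 9 genes was lower in every HP diet-fed rat than in any control rat, although 5 of them overlapped between the diets when taken singly, and Glul overlapped. The diet differences were -0.16 for that mean and -0.19 for Glul. A mean over 9 genes varies less between rats than a single gene by construction, so the separation of the one and the overlap of the other is no contrast between periportal and perivenous genes.

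**Figure D4:**
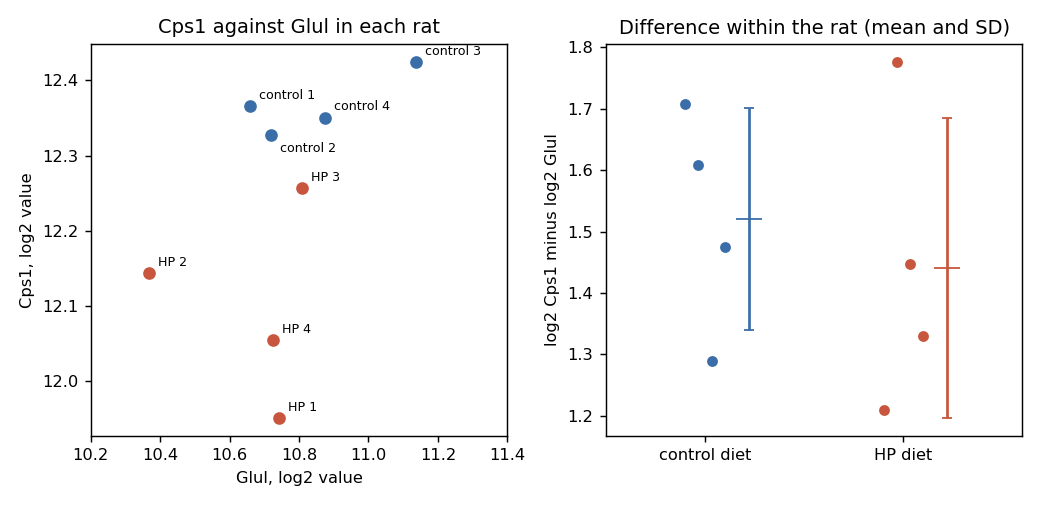
Left, log2 Cps1 against log2 Glul in each rat. Right, log2 Cps1 minus log2 Glul in each rat, with the mean and SD of each diet (n = 4). Cps1 separates the diets along the vertical axis, Glul does not along the horizontal one, and the within-rat difference overlaps.

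Over the 8 rats Cps1 correlated with Ass1 at r = 0.90, with Slc25a15 at 0.84, with Gls2 at 0.72 and with Glul at 0.46. Around the diet means these were 0.63, 0.52, -0.30 and 0.14, so that the relation of Cps1 to Gls2 lay between the diets and not within them. Slc25a15 and Gls2 ran against each other around the diet means (r = -0.84). These are descriptions over 8 rats whose values share the same arrays, with no test. The genes most like Cps1 among 2807 other measured genes were Hsph1 (r = 0.95), a heat shock protein of the Hsp110 family, Cbs (0.94), which makes cystathionine from homocysteine and serine, Zfp36 (0.94), an mRNA decay factor, Atp1b1 (0.93), a subunit of the sodium pump, and Pde4dip (0.92). Those most like Glul were Slc38a3 (r = 0.92), a glutamine carrier, Sec16b (0.92), Ier3 (0.91), Rabl3 (0.90) and Rab10 (0.89). Slc38a3 read 10.40, 10.51, 10.68 and 10.53 in control rats and 10.37, 10.29, 10.45 and 10.43 in HP diet-fed rats. Like Glul it was highest in control rat 3 and lowest in HP rat 2.

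Enzymes that feed nitrogen into the cycle were described in the same way. Of 13 listed, 10 were measured, 7 were lower by rank products and none higher, with a median log2 difference of -0.21. This count and those of the following lists stand beside 9.94% of all measured genes called lower and 8.48% called higher, and were not compared with them by a test. The lists were chosen with earlier results of these data known, including supplementary values of the study. The study's own rank products on these arrays had already called these 7 genes lower, so their count is no independent support. Sds, the serine dehydratase, read 10.78, 9.19, 9.82 and 9.98 in control rats and 8.82, 8.70, 8.85 and 8.97 in HP diet-fed rats. Its HP mean was 46.5% of the control mean, and the HP diet-fed rats lay within 0.27 of each other while the control rats spread over 1.59. The cytosolic aminotransferase Got1 had a log2 difference of -0.52 with overlap between the diets (rank products FDR 0.00267). The proline dehydrogenase Prodh had one of -0.40 without overlap between the diets, and the alanine aminotransferases Gpt2 and Gpt had -0.30 and -0.21 with overlap. At the dimmer measured probe set of Gpt2, 1384903_at, the difference was -0.20 and the diets did not overlap. Hal, the histidine ammonia-lyase, had -0.21, and Gldc of the glycine cleavage system had -0.20, both with overlap. At the measured probe sets with the highest mean, only Sds and Prodh of the 10 genes separated the diets. Over all measured genes, 3.53% had every HP diet-fed rat below every control rat. Got2 and Glud1, the mitochondrial aminotransferase and glutamate dehydrogenase, differed by 0.03 and 0.02, and a second measured probe set of Glud1, 1370200_at, had the opposite sign at -0.05. None of these passed the adjusted limma threshold.

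Among 14 carriers 7 were measured and 3 were lower by rank products. Slc38a4, an amino acid transporter of hepatocytes, read 12.35, 12.44, 12.45 and 12.45 in control rats and 12.19, 12.16, 12.19 and 12.27 in HP diet-fed rats. Its diets did not overlap, and the log2 difference of -0.22 had an SE of 0.04 (rank products FDR 0.0232, limma adjusted p 0.167). The dicarboxylate carrier Slc25a10 and the glutamate carrier Slc25a22 had log2 differences of -0.28 and -0.17 with overlap. Of 10 genes of arginine and polyamine use 6 were measured and 2 were lower by rank products, the spermidine synthase Srm at -0.31 and the ornithine decarboxylase Odc1 at -0.19, and the diets overlapped in both.

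Listed regulators of urea cycle genes or of their enzymes gave a mixed picture. Of 13 listed, 10 were measured, 5 with a negative and 5 with a positive difference, and the median was -0.03. Klf15, a factor that raises amino acid catabolism, and Foxo1 were lower by rank products at -0.32 and -0.23, and the coactivator Ppargc1a was higher at 0.28 (FDR 0.0272). The limma adjusted p-values of these 3 genes were 0.470, 0.398 and 0.527, with overlapping diets. The probe sets of Hnf4a, named after its values were seen, disagreed in sign, with -0.10 at the brighter 1392969_at and 0.45 at 1382496_at. The study listed Hnf4a as higher on the HP diet, with an average difference of 0.45. The probe sets of Ppargc1a also differed, with 0.06 and 0.04 at the other measured ones.

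**Figure D5:**
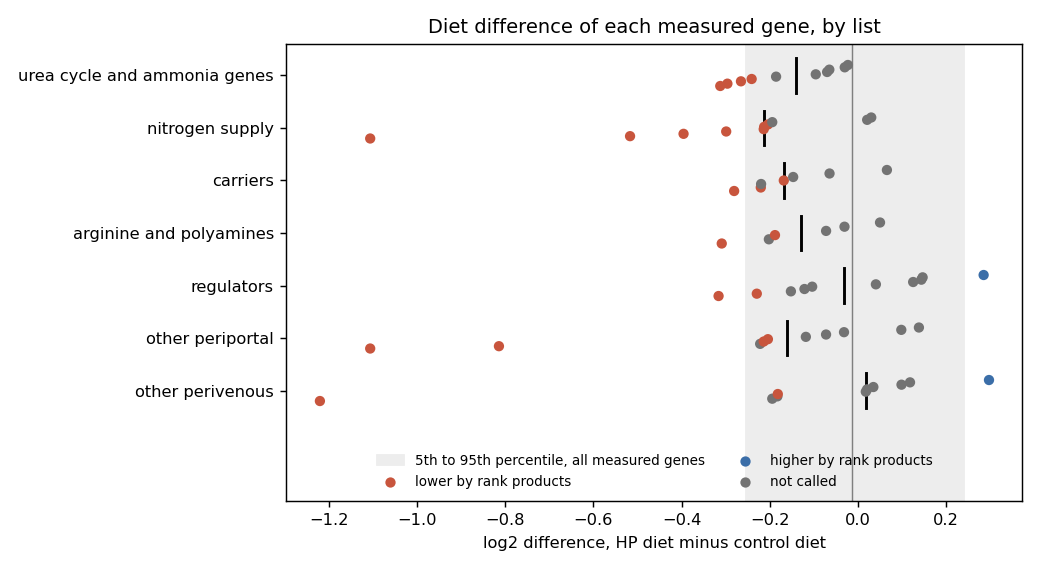
Log2 difference, HP diet minus control diet, of each measured gene of 7 lists at its probe set with the highest mean. Points are genes coloured by the rank products call (FDR under 0.05), black bars are list medians, the grey line is the median and the grey band the 5th to 95th percentile of the 2808 measured genes. The members lie between -0.31 and -0.02, and Sds, Tat and Cyp7a1 lie furthest to the left. Genes on 2 lists appear on both.

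Other genes of the lobule's zones were listed without the members. Of 10 measured periportal genes 8 had a negative and 2 a positive difference, with a median log2 difference of -0.16. The positive ones were Cdh1 (0.14) and Hsd17b13 (0.10). By rank products 4 of the 10 were lower and none higher. They were Sds, Hal and Gldc, which the nitrogen list also holds, and the tyrosine aminotransferase Tat. Tat read 9.09, 9.25, 9.72 and 8.75 in control rats and 8.37, 8.27, 8.73 and 8.19 in HP diet-fed rats, an HP mean of 56.9% of the control mean. The diets did not overlap, though HP rat 3 came within 0.03 of control rat 4. Of 10 measured perivenous genes 2 were lower and 1 was higher by rank products, with a median of 0.02, beside 9.94% and 8.48% of all measured genes. Cyp7a1, the rate-limiting enzyme of bile acid synthesis, had the largest difference at -1.22 with an SE of 0.54. Gulo had -0.18 (-0.30 at its dimmer measured probe set). The factor Tbx3 had 0.30 with an SE of 0.30. It read 6.65, 7.46, 7.61 and 6.75 in control rats and 7.08, 7.28, 7.14 and 8.16 in HP diet-fed rats. All 3 overlapped between the diets. The difference between the periportal and the perivenous list was not tested.

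Of the markers of other liver cells, 1 Kupffer cell marker and 2 endothelial markers were called by rank products and none by limma, and their part in the members' differences was not tested. Of 9 measured Kupffer cell markers of 12 listed, 8 had a negative difference, with a median of -0.09. Cd5l was lower by rank products, with a log2 difference of -0.33 and no overlap. The mean deviation of the Kupffer list ran from -0.17 to 0.30 in control rats and from -0.21 to 0.05 in HP diet-fed rats. All 4 measured sinusoidal endothelial markers of 9 listed had positive differences, and Kdr (0.26, no overlap) and Stab2 (0.23) were higher by rank products. Their mean deviation ran from -0.14 to 0.00 in control rats and from -0.01 to 0.16 in HP diet-fed rats. Of 10 stellate cell and fibroblast markers 7 were measured and none was called, the largest differences being those of Lrat (0.14) and Col1a2 (0.11). The 5 cholangiocyte markers with a probe set, of 6 listed, were near constant and none was measured.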

How the data were processed

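Liver RNA of 4 control and 4 HP diet-fed rats was labelled from total RNA and hybridised to Affymetrix rat arrays, 1 per rat. Probe signals had been condensed by the authors into 1 value per probe set with FARMS, and the deposited values are on the log2 scale. The submitters' processing notes name R 2.13.1. How arrays were normalized to each other is not stated in the sources used here, and no normalization was added. FARMS leaves probe sets whose probes share no variation over the arrays nearly constant. Bright ones were among them, such as 1384334_at of Cps1 at 13.05.

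Diets were taken from the sample labels. Gene names came from the platform's annotation, using the 20832 probe sets with 1 symbol, and not the 436 with several. Old symbols were updated through the Entrez ID where RefSeq held it. The limma alternative on the mean of a gene's probe sets used the platform's symbols unchanged. Rank products were computed in Python 3.11.15 (numpy 2.4.6) over all 31099 probe sets and 16 array pairs with 1000 permutations within arrays (FDR under 0.05). Limma 3.58.1 in R 4.3.3 was fitted to the 4155 probe sets spanning at least 0.05, with trend and robust empirical Bayes and Benjamini-Hochberg adjustment, two-sided. Log2 Cps1 minus log2 Glul was compared by an exact permutation test over rats. A gene was represented by its measured probe set with the highest mean.

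Every member was named. Of each other list, the genes called by limma were named or, if none, those called by rank products (at most 6, largest differences first) or, if none, the 2 with the largest differences. The 5 genes most like Cps1 and the 5 most like Glul were named by Pearson's r over the 8 rats. Glud1, Got2 and Hnf4a were added after their values were seen. The members and lists were chosen with earlier results of these data known, including supplementary values of the study.

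The alternatives were centring on the median of measured probe sets, quantile normalization, ranking only measured probe sets, limma on all probe sets or on those spanning 0.2 or more, exclusion of the dimmest 25%, plain empirical Bayes, array weights, a replicate block, the mean of a gene's measured probe sets, and leaving out each rat in turn. Promoter windows came from RefSeq (GRCr8), and no coordinates of probe sets were used.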

Additional observations from a re-analysis of the deposited data

Results flagged for a closer look

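Within each diet, the highest and the lowest rat were compared with the other 3 at every measured member probe set, at the other named genes and for Cps1 minus Glul. Of 90 such groups 4 held a rat whose gap to the nearest other rat was above the 95% critical value of Dixon's ratio for 4 rats, as a share of the whole range of its diet, and chance flags about 1 in 20 groups.

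For Asl at 1368916_at, HP rat 1 read 9.88 while the other HP diet-fed rats read 10.21, 10.21 and 10.22, a gap of 0.953 of the range. For Slc25a15 at 1374800_at, control rat 4 read 11.96 and the other control rats 11.62, 11.67 and 11.67, a gap of 0.851. For Prodh, HP rat 1 read 9.04 and the other HP diet-fed rats 8.78, 8.80 and 8.80, a gap of 0.930. For Slc38a4, control rat 1 read 12.35 and the other control rats 12.44, 12.45 and 12.45, a gap of 0.843.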

How the results depend on the processing

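The number of members lower by rank products was 4, and 4 again with the arrays centred, with quantile normalization and without the dimmest 25% of probe sets. It was 0 when only measured probe sets were ranked, and 0 to 4 when each rat was left out in turn. The cause was not tested. Limma called none of the 10 genes in the main fit (4 at an unadjusted p under 0.05, 4 by rank products) or under any alternative run, where the smallest adjusted p of a member probe set was 0.0519 without control rat 1. The difference between the diets in Cps1 minus Glul stayed negative, from -0.19 to -0.0026 as each rat was left out, and was -0.13 with the mean of the measured probe sets of each gene. With the replicate block, limma called 0 members and the paired difference of Cps1 minus Glul was -0.08 (exact sign-flip p = 0.875). With 4 pairs this sign-flip test cannot reach a p under 0.05, so it decides nothing about the difference. The deviations of same-numbered rats had correlations from -0.20 to 0.48, and 1 of 4 HP diet-fed rats correlated best with its own number. The largest correlation, 0.51, was between control rat 3 and HP rat 4. The labels name no pairing, and so few rats cannot decide whether some were paired or processed together.

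Of the 18 member probe sets, 14 kept a negative difference under every alternative run for them. With array weights, Asl was 0.0029 at 1367754_s_at and 0.019 at 1368916_at. As each rat was left out, Asl at 1368916_at ran from -0.12 to 0.033 (without control rat 1, 0.0015), Glul at 1386870_at from -0.20 to 0.0019 and Glul at 1367633_at from -0.14 to 0.0010. Centring moved the median of all measured genes by 0.02 and quantile normalization by 0.01. With 4 rats per diet, an adjusted p above the threshold does not show that a gene did not differ.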
